A study of Rattus with 4 samples.

Results

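A set of 42 genes that build, fold and move secreted proteins was followed through an RNA immunoprecipitation of the nuclear protein NONO in cultured rat cardiac cells. The members are genes of protein folding and translocation in the endoplasmic reticulum (ER) and of vesicle transport between the ER and the Golgi. They were taken by gene symbol from the deposited table of reads per gene, and all 42 were found among its 13731 genes. Of the 42, 31 had enough reads to be tested and 11 did not. RNA immunoprecipitation sequencing (RIP-seq) reads the RNA that an antibody pulls down together with its protein, and the input is the same kind of lysate before that step.

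The libraries were 2 NONO IP libraries, made with an anti-NONO antibody, and 2 input libraries with no antibody, all of tissue labelled cardiac musculus and a line labelled fibroblasts. The cell type label gives NONO siRNA to the NONO IP libraries and an empty vector to the inputs, so by these labels precipitation and knockdown cannot be told apart. The titles name H9C2, which is a heart myoblast line, while the growth protocol speaks of cardiac fibroblasts. None of the 4 libraries used a control antibody. Whether replicates were separate cultures is not stated, so p-values measure only the spread between these libraries, which may be technical.

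Proteins that leave a cell enter the ER through the Sec61 channel while they are being translated, and are glycosylated, folded and cross-linked there by chaperones, disulfide isomerases and, for collagens, hydroxylases. COPII coats then carry them to the Golgi, and COPI coats bring escaped ER proteins and receptors back. Fibroblasts secrete large amounts of collagen and other matrix proteins, and their ER is developed accordingly. NONO is an RNA- and DNA-binding protein of the nucleus and a core protein of paraspeckles.

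Gene counts summed to 279410 and 264059 in the NONO IP libraries and to 249548 and 238776 in the inputs, so that 3 reads in a library correspond to between 10.7 and 12.6 CPM (reads scaled to a common library size). Levels are given as CPM scaled by TMM, which sets the typical tested gene to no change. On that scale the NONO IP libraries counted as 1.50-fold larger than the inputs in sum, and equal numbers of reads therefore stand for a log2 difference of −0.59. Nono itself had 3 and 3 reads in the NONO IP and 21 and 9 in the inputs. The 9 fibroblast markers with a row held between 19339 and 20372 reads per NONO IP library and between 18630 and 19445 per input, nearly all on collagen genes, whereas Tcf21 and Dcn had at most 6 reads in any library. Only Des and Cdh15 of 8 skeletal myoblast markers had a row, with 8 reads or fewer per library. In scaled CPM, fibroblast markers summed to 68978 and 69086 in the NONO IP and 100170 and 98586 in the inputs, smooth muscle markers (6 of 6 with a row) to 1358 and 1393 against 2931 and 3006, macrophage markers (5 of 6) to 10.2 and 3.57 against 72.1 and 68.8, and cardiomyocyte markers (7 of 10) to 271 and 268 against 211 and 344, with endothelial markers (3 of 6) at 210 and 221 against 216 and 233. Single markers differed from their sums. Of the fibroblast markers, Pdgfra rose (log2 fold change 1.04), while Postn (−3.16), Vim (−1.15), Col1a1 (−0.42), Col1a2 (−0.75) and Col3a1 (−0.49) fell. Thy1 (−0.02) was not called. Tnnt2 carried most cardiomyocyte reads (0.57, not called), and Myh6 (−1.26) and Myh7 (−2.82) fell. Pdgfra passed the count filter given below through the NONO IP alone, and Myh6 and Myh7 through the input alone. Flt1 held nearly all endothelial reads, 59 and 62 in the NONO IP and 41 and 43 in the inputs. Lyz2 held most macrophage reads of the inputs (9 and 13). The part of these cell types in the results was not tested. In such bulk libraries, fewer cells of a type, less RNA per cell and less RNA recovered with the antibody cannot be told apart.

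Secretory pathway mRNAs were lower in the NONO IP than in the input across all 7 classes of members. Over the 42 genes, both NONO IP libraries lay below both inputs in scaled CPM for 37 genes and above them for none; 25.1% of the 12190 coding genes listed were separated in the lower direction. The 5 members whose groups overlapped were Ssr1, Ssr2, Sec23a, Kdelr1 and Kdelr3. Where a mean of at least 10 reads over the 4 libraries was required, a filter that favours neither group, 30 of 31 members were separated in the lower direction, against a background of 39.6% of 2523 coding genes. Without a scaling factor, on library totals, 33 members lay lower, 1 (Canx) higher and 8 overlapped, with 19.1% of coding genes lower.

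The members held 1229 and 1356 reads in the NONO IP libraries and 1932 and 1889 in the inputs. As a share of all gene counts, which needs no scaling, this was 0.440% and 0.514% in the NONO IP (exact 95% binomial intervals 0.416 to 0.465% and 0.487 to 0.542%) and 0.774% and 0.791% in the inputs (0.740 to 0.809% and 0.756 to 0.827%). These intervals cover counting error only, since reads carry no molecular identifiers. The NONO IP share averaged 0.477% ± 0.0521 and the input share 0.783% ± 0.0120 (SD, n = 2 each), so the groups differed by more than their replicates. In summed scaled CPM the 42 genes came to 4503 ± 483 in the NONO IP and 9974 ± 30.8 in the inputs, a log2 ratio of −1.15.

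**Figure D1:**
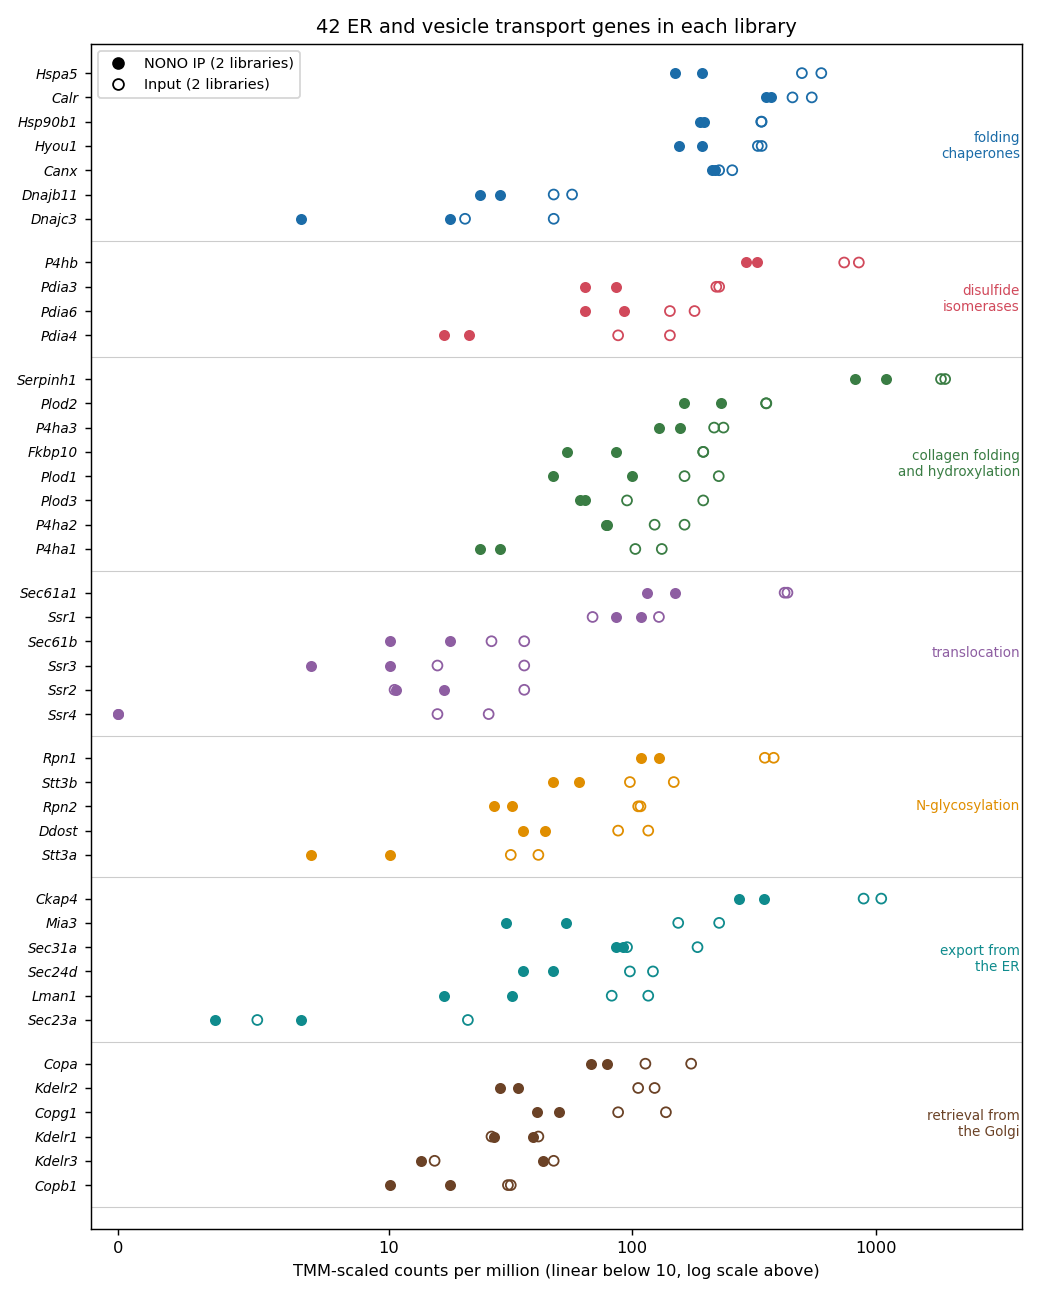
Scaled level of each of the 42 genes in each library, in TMM-scaled CPM (linear below 10, logarithmic above), with NONO IP libraries as filled and inputs as open circles and genes ordered by input level within each class. Filled circles lie left of both open circles for 37 genes; the groups overlap for Ssr1, Ssr2, Sec23a, Kdelr1 and Kdelr3.

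Each gene was then tested with edgeR's quasi-likelihood test over all 2920 genes that passed a count filter, with Benjamini-Hochberg adjustment and a threshold of 0.05. Of the 31 members tested, 28 fell and none rose; Canx, Ssr1 and Sec31a did not pass. On library totals 18 of the 31 were called lower, against 16.3% of coding genes, and with the DESeq2 Wald test also 18, against 14.7%. Among the 2777 coding genes tested, 27.7% were called lower and 27.3% higher, and among all tested genes 26.9% lower and 29.8% higher. At least 2-fold decreases were called for 20 members, against 20.1% of coding genes. The members' median log2 fold change was −1.34, beside −0.03 for tested coding genes and 0.02 for all tested genes.

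The count filter admitted 8 of the 31 members (Pdia4, P4ha1, Rpn2, Ddost, Lman1, Sec24d, Mia3 and Kdelr2) through their input reads alone, and such genes had to differ. All 8 are among the members called at least 2-fold lower, and they enter the class counts and medians below. Of the 23 that passed in both groups, 20 were called lower, at a median of −1.04 over the 23. With the filter on mean reads, 28 of 31 members were called lower, against 28.3% of coding genes, and with no filter 23 of all 42 were, against 5.14% (8.04% higher). Leaving out NONO IP replicate 1, NONO IP replicate 2, Input replicate 1 or Input replicate 2 gave 23 of 34, 26 of 32, 25 of 33 and 25 of 34 tested members lower, against 18.6%, 21.1%, 18.3% and 19.9% of coding genes. In those fits the lone library of a group is assumed to vary like the pair of the other group. Of the 28 members called lower, 15 kept that call under every one of 17 alternative settings that tested them: Hspa5, Hyou1, P4hb, Pdia3, Pdia4, Serpinh1, Fkbp10, P4ha1, Sec61a1, Rpn1, Rpn2, Lman1, Mia3, Ckap4 and Kdelr2. Among these, Pdia4, P4ha1, Rpn2, Lman1, Mia3 and Kdelr2 were admitted through the input alone, so their kept calls add little.

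**Figure D2:**
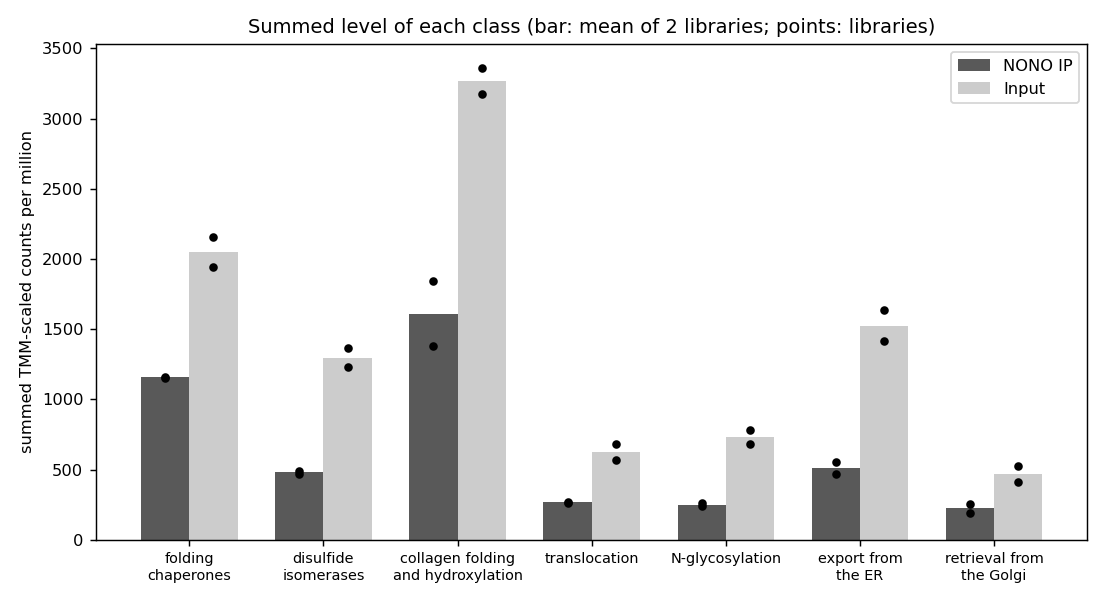
Summed TMM-scaled CPM of every member of each class, with bars for the mean of 2 libraries and points for single libraries, NONO IP left of input. In each of the 7 classes both NONO IP sums lie below both input sums, from a log2 ratio of −0.83 for folding chaperones to −1.57 for export from the ER. Most of the export sum is Ckap4, an ER sheet anchor counted in that class.

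The folding chaperones of the ER lumen and membrane summed to 1155 and 1157 scaled CPM in the NONO IP and to 2158 and 1942 in the inputs, the smallest decrease in sums among the 7 classes (log2 ratio −0.83). Of 5 tested members 4 fell. Hspa5 (BiP, the Hsp70 chaperone of the ER, chromosome 3) had 57 and 42 reads in the NONO IP and 116 and 94 in the inputs. Both NONO IP libraries lay far below both inputs, and the change was 3.18-fold (log2 fold change −1.67, SE 0.18, edgeR adjusted p = 7.62e-07). Hsp90b1, the Hsp90 of the ER (chromosome 7), had 56 and 55 reads in the NONO IP and 66 and 64 in the inputs (−0.81, SE 0.19, edgeR adjusted p = 0.00137). The Hsp90b1 call ended under 3 of 17 alternatives, among them library totals (−0.38, edgeR adjusted p = 0.0920) and an offset for gene length (−0.44, 0.0576). Hyou1, a large Hsp70-like nucleotide exchange factor for BiP (chromosome 8), had 46 and 54 against 66 and 62 and changed by −0.94 (SE 0.20).

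Calreticulin and calnexin, the paired lectin chaperones that hold glycoproteins until they are folded, stood at the upper end of the class. Calr (chromosome 19) had 110 and 99 reads in the NONO IP and 106 and 86 in the inputs, overlapping as plain reads and lower in the NONO IP after scaling (−0.46, SE 0.15, adjusted p = 0.0163). Its call ended under 7 of 17 alternatives (adjusted p from 0.00325 to 0.876 over them), among them leaving out NONO IP replicate 2 (0.0833) or Input replicate 1 (0.222), and with an offset for gene length the change was 0.20. Canx (chromosome 10) had 63 and 61 reads against 50 and 43, a log2 fold change of −0.17 (SE 0.20, adjusted p = 0.486), and was at 0.26 on library totals. On the deposited reads per kilobase (RPKM), as log2(RPKM + 1) and log2(RPKM + 0.1), limma called it lower. The changes there were −0.78 and −0.82 (limma adjusted p = 0.0472 and 0.0444), where all tested genes had medians of −0.61 and −0.82. The BiP co-chaperones Dnajb11 and Dnajc3 were too low to test, with 7 and 8 reads in the NONO IP and 11 and 9 in the inputs for Dnajb11, and 2 and 5 against 4 and 9 for Dnajc3.

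All 4 disulfide isomerases fell, at a median of −1.47. P4hb (protein disulfide isomerase, also the beta subunit of collagen prolyl 4-hydroxylase, chromosome 10) had 96 and 82 reads in the NONO IP and 144 and 161 in the inputs. It averaged 309 ± 22.7 scaled CPM in the NONO IP and 797 ± 77.9 in the inputs (SD, n = 2 each), a log2 fold change of −1.36 (SE 0.14, adjusted p = 4.29e-07). Pdia3 (ERp57, the partner of calreticulin and calnexin, chromosome 3) had 19 and 24 reads in the NONO IP and 43 and 43 in the inputs (−1.58, SE 0.27, adjusted p = 8.56e-05). Pdia6 (chromosome 6) had 19 and 26 against 35 and 27 (−1.04, SE 0.29, adjusted p = 0.00600). Its call ended under 6 of 16 alternatives (adjusted p from 0.00123 to 0.378), among them without NONO IP replicate 1 (0.0883). The largest fitted decrease of all 31 tested members was that of Pdia4 (chromosome 4), with 5 and 6 reads in the NONO IP and 17 and 27 in the inputs (−2.55, SE 0.44). As shares of the 4 isomerases' summed RPKM (reads per kilobase of gene, as deposited), Pdia4 took 3.40% and 3.98% in the NONO IP and 6.60% and 9.92% in the inputs, while P4hb took most in all 4 libraries.

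All 8 genes of collagen folding and hydroxylation fell, and this class held the most reads. Serpinh1 (Hsp47, the chaperone specific to procollagen, chromosome 1) had the highest level of the 42 members per length in both groups. It had 243 and 307 reads in the NONO IP and 374 and 350 in the inputs, at 960 ± 194 and 1889 ± 52.7 scaled CPM, a 1.97-fold decrease (log2 fold change −0.98, SE 0.12, adjusted p = 2.11e-06). The NONO IP libraries differed from each other more than the inputs did, and both lay below them. Fkbp10 (FKBP65, a prolyl isomerase acting on collagen, chromosome 10) had 16 and 24 reads in the NONO IP and 38 and 37 in the inputs and changed by −1.49 (SE 0.29).

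The prolyl 4-hydroxylase alpha subunits, which make the hydroxyproline that stabilises the collagen triple helix, had unequal fold changes. P4ha1 (chromosome 20) had 7 and 8 reads in the NONO IP and 20 and 25 in the inputs (−2.15, SE 0.39). P4ha2 (chromosome 10) had 23 and 22 against 24 and 31 (−0.87, SE 0.29), and P4ha3 (chromosome 1) had 38 and 44 against 46 and 41 (−0.67, SE 0.23, adjusted p = 0.0206). By RPKM, P4ha1 made up 9.98% and 10.5% of the 3 genes in the NONO IP and 21.6% and 25.2% in the inputs, without overlap. P4ha3 made up 57.4% and 60.9% against 52.6% and 43.7%, also without overlap, and the difference between these subunits was not tested. The P4ha2 call ended under 8 and the P4ha3 call under 7 of 16 alternatives (adjusted p from 0.00773 to 0.210 and from 0.0129 to 0.483), among them without NONO IP replicate 1 (0.0805 and 0.178). P4ha2 also lost it without NONO IP replicate 2 (0.0579) or Input replicate 2 (0.116), and P4ha3 without Input replicate 1 (0.0962).

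The lysyl hydroxylases, which prepare collagen for cross-linking, were closer to one another. Plod2 (the enzyme of the collagen telopeptides, chromosome 8) had 48 and 65 reads in the NONO IP and 69 and 67 in the inputs (−0.85, SE 0.20, adjusted p = 0.00172). Plod1 (chromosome 5) had 14 and 28 against 44 and 31 and changed by −1.41 (SE 0.32). Plod3 (chromosome 12), which also glycosylates hydroxylysine, had 18 and 18 against 38 and 18 and changed by −1.22 (SE 0.35). Input replicate 1 carried the Plod3 call: without it the change was −0.63 (adjusted p = 0.234; over 16 alternatives 9.15e-06 to 0.234). Their shares of the 3 genes' summed RPKM overlapped between NONO IP and input for Plod3 only.

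Of the translocation genes, the channel subunit fell and most of its partners were too low to test. Sec61a1 (the pore of the Sec61 channel, chromosome 4) had 34 and 42 reads in the NONO IP and 82 and 82 in the inputs. It averaged 133 ± 24.7 and 428 ± 8.14 scaled CPM, a 3.23-fold decrease (log2 fold change −1.69, SE 0.20, adjusted p = 1.71e-06). Ssr1 (the alpha subunit of TRAP, the translocon-associated protein complex, chromosome 17) had 32 and 24 reads in the NONO IP and 25 and 13 in the inputs, with overlapping groups (−0.03, SE 0.33, adjusted p = 0.953). Its log2 fold change lay between −0.61 and 0.47 over 16 alternatives, and Ssr1 was the longest of the 42 genes. The other subunits of the complex had few reads: Ssr2 had 5 and 3 in the NONO IP and 7 and 2 in the inputs, and Ssr3 had 3 and 2 against 7 and 3. Ssr4 (chromosome X) had 0 and 0 reads in the NONO IP against 5 and 3. With 3 reads allowed over both NONO IP libraries, this stands for a 4.0-fold decrease. That value takes the 8 input reads as exact and is no lower bound for counting error. Sec61b, the small beta subunit of the channel, had 3 and 5 reads in the NONO IP and 7 and 5 in the inputs.

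All 4 tested genes of the oligosaccharyltransferase, which attaches N-glycans to entering proteins, fell, at a median of −1.48. Rpn2 and Ddost among them passed the count filter through the input alone. Rpn1 (ribophorin I, chromosome 4) had 32 and 36 reads in the NONO IP and 68 and 72 in the inputs (−1.62, SE 0.21, adjusted p = 4.78e-06). Rpn2 (ribophorin II, chromosome 3) had 8 and 9 against 21 and 20 (−1.84, SE 0.38, adjusted p = 0.000602). Ddost (chromosome 5), another non-catalytic subunit, had 13 and 10 against 17 and 22 and changed by −1.34 (SE 0.37). Both NONO IP libraries lay below both inputs for all 5 genes of the class. The catalytic subunit Stt3b (chromosome 8) had 14 and 17 reads in the NONO IP and 19 and 28 in the inputs (−1.18, SE 0.34, adjusted p = 0.00762), a call that ended under 7 of 16 alternatives (adjusted p from 0.000686 to 0.104), among them without NONO IP replicate 1 (0.0593) or Input replicate 2 (0.0800). The other catalytic subunit, Stt3a, had 3 and 2 against 8 and 6 reads. Stt3b made up most of the RPKM of the pair in every library, 91.0% and 94.9% in the NONO IP and 83.8% and 91.0% in the inputs.

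The class named export from the ER, in which Ckap4 was counted, showed the lowest ratio of sums (log2 −1.57). It summed to 467 and 557 scaled CPM in the NONO IP against 1417 and 1635 in the inputs. The ratio for N-glycosylation was close to that of this class (−1.55). Ckap4 (an ER sheet and microtubule anchor, chromosome 7) had 81 and 97 reads in the NONO IP and 173 and 199 in the inputs (−1.65, SE 0.15, adjusted p = 5.32e-08). It contributed most of the class's level, on average 310 of 512 scaled CPM in the NONO IP and 972 of 1526 in the inputs. The class's ratio of sums and its rank as lowest therefore rest largely on Ckap4, an anchor and not a coat or cargo receptor gene. Mia3 (TANGO1, the receptor that loads bulky collagens into COPII carriers, chromosome 13) had 9 and 15 reads in the NONO IP and 30 and 43 in the inputs, a 4.52-fold decrease (−2.18, SE 0.34, adjusted p = 4.02e-05). Lman1 (ERGIC-53, a lectin receptor for glycoprotein cargo, chromosome 18) had 5 and 9 against 16 and 22 and changed by −2.0 (SE 0.43). The COPII coat genes were less far apart. Sec24d (a cargo-binding inner coat subunit, chromosome 2) had 14 and 10 reads in the NONO IP and 19 and 23 in the inputs and changed by −1.38 (SE 0.36). Sec31a (outer coat, chromosome 14) had 27 and 24 against 36 and 18 and did not pass (−0.67, SE 0.32, adjusted p = 0.0836). Its inputs were unequal; without Input replicate 2 the change was −1.12 and was called (adjusted p = 0.00376; over 16 alternatives up to 0.822). Sec23a, the inner coat subunit that pairs with Sec24 proteins, had 2 and 1 reads in the NONO IP and 1 and 4 in the inputs, a ratio of 2.50 in favour of the inputs with an exact interval from 0.487 to 16.1 for counting error.

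Of the genes of retrieval from the Golgi, 3 could be tested and all fell, while the KDEL receptors had unlike read counts. Kdelr2 (chromosome 12), a receptor that returns chaperones ending in KDEL to the ER, had 10 and 8 reads in the NONO IP and 24 and 20 in the inputs (−1.86, SE 0.38, adjusted p = 0.000468). Its paralogues were untested: Kdelr1 had 8 and 11 reads against 8 and 5, and Kdelr3 had 4 and 12 against 3 and 9. By RPKM, Kdelr2 took 39.1% and 20.7% of the 3 receptors in the NONO IP and 62.9% and 51.4% in the inputs, without overlap, and the difference between paralogues was not tested. Copa (the alpha subunit of the COPI coat, chromosome 13) had 20 and 22 reads in the NONO IP and 22 and 33 in the inputs (−0.97, SE 0.31, adjusted p = 0.0128). Copg1 (the gamma subunit, chromosome 4) had 12 and 14 reads against 17 and 26 (−1.30, SE 0.37, adjusted p = 0.00613). Without Input replicate 2 both calls ended (adjusted p = 0.148 for Copa and 0.0714 for Copg1), and that of Copa also without NONO IP replicate 1 (0.0805). Over all 16 alternatives adjusted p-values ran from 0.00141 to 0.148 for Copa and from 0.000404 to 0.0884 for Copg1. Copb1, the beta subunit, had 3 and 5 reads in the NONO IP and 6 and 6 in the inputs.

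Per kilobase, the order of the members was largely kept. On the deposited RPKM scale Serpinh1 led with 145 ± 33.7 in the NONO IP and 450 ± 9.64 in the inputs (SD, n = 2 each). Ckap4 (39.4 ± 7.70 and 195 ± 24.2), P4hb (38.1 ± 1.61 and 156 ± 16.2), Calr (62.8 ± 0.339 and 137 ± 16.7) and Hspa5 (21.5 ± 3.15 and 109 ± 13.4) followed in the inputs. The input values of P4hb (144 and 167) and Calr (149 and 125) overlapped, as did those of no other neighbours among these 5 genes. In the NONO IP, Calr stood next to Serpinh1. Across the 42 genes the levels of the groups correlated at a Spearman rho of 0.909, and across 2523 coding genes with a mean of at least 10 reads at 0.665; these are descriptions over genes that share libraries. The mean RPKM was lower in the NONO IP for all 42 genes. The RPKM total behind the values of the NONO IP libraries was 2.38-fold that of the inputs, so this scale puts most genes lower, with a median log2 ratio of −2.02 for the 31 members and −0.71 for the 2523 coding genes.

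The members were compared with coding genes of like input count and length, because gene length and level both varied with the change. Among the other 2746 tested coding genes, log2 fold change and relative gene length had a Pearson r of 0.312 and a Spearman rho of 0.311 across genes, given as a description. Of the 31 tested members, 21 lay in the shortest of 3 equal bins of length, where the other coding genes had a median of −0.53 and 40.0% were called lower. All 21 members there were called lower, at a median of −1.41. In the middle bin 6 of 8 members were, at a median of −0.96 beside 0.07 for the others, of which 21.3% were called lower. An offset for gene length in the fit left 20 of 31 members called lower at a median of −0.94, against 22.1% of coding genes.

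**Figure D3:**
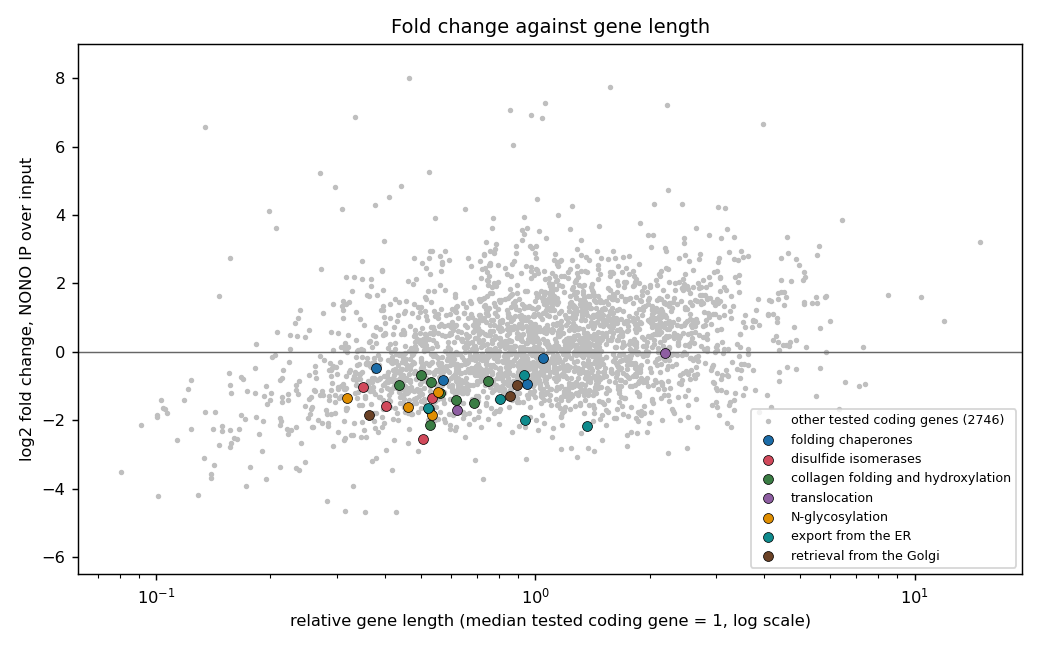
Log2 fold change of NONO IP over input against relative gene length (log axis, median tested coding gene at 1) for 2746 other tested coding genes in grey and the 31 tested members in colour by class. Members lie mostly left of 1 and below 0, where the grey points also tend to be lower.

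For each member, the median log2 fold change of tested coding genes with input reads within 2-fold and a length within 1.5-fold was taken, over between 12 and 661 genes. The members lay below that median in 26 of 31 cases, at a median difference of −0.52 on the log2 scale, and 21 lay below it by more than their own SE. The typical like gene itself stood at −0.71. Input reads enter both the match and the fold. When genes were matched on mean level over the 4 libraries instead, 30 of 31 members lay below, at a median difference of −0.97. These comparisons carry no test.

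The members farthest below their like genes were those of cargo export and a few enzymes. Pdia4 lay at −1.85 from the median of 427 like genes, Mia3 at −1.83 from 322 genes, Lman1 at −1.77 from 661 and P4ha1 at −1.44 from 414. Of the like genes, 1.87%, 1.55%, 2.72% and 4.11% had a lower fold change than Pdia4, Mia3, Lman1 and P4ha1. All 4 are among the members that passed the count filter through the input alone. Among members that passed in both groups, Copg1 (−0.92), Sec61a1 (−0.88), Fkbp10 (−0.88) and Ckap4 (−0.79) were lowest relative to like genes. Above their like genes lay Calr (0.63), Canx (0.28), P4ha3 (0.12), Serpinh1 (0.07) and Hsp90b1 (0.00). With genes of like mean level, Calr alone lay above (0.60), and Serpinh1 (−0.0048), Canx (−0.087), P4ha3 (−0.15) and Hsp90b1 (−0.32) lay below. By class the median difference was 0.00 for folding chaperones, −0.32 for collagen folding and hydroxylation, −0.54 for N-glycosylation, −0.55 for translocation, −0.59 for disulfide isomerases, −0.92 for retrieval and −0.98 for export. With genes of like mean level, the same medians were −0.32, −0.74, −0.91, −0.93, −0.82, −1.25 and −1.30. The export value rests on Mia3, Lman1 and Sec24d, which passed the filter through the input alone. The other tested genes counted in that class, Ckap4 and Sec31a, lay at −0.79 and −0.27.

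**Figure D4:**
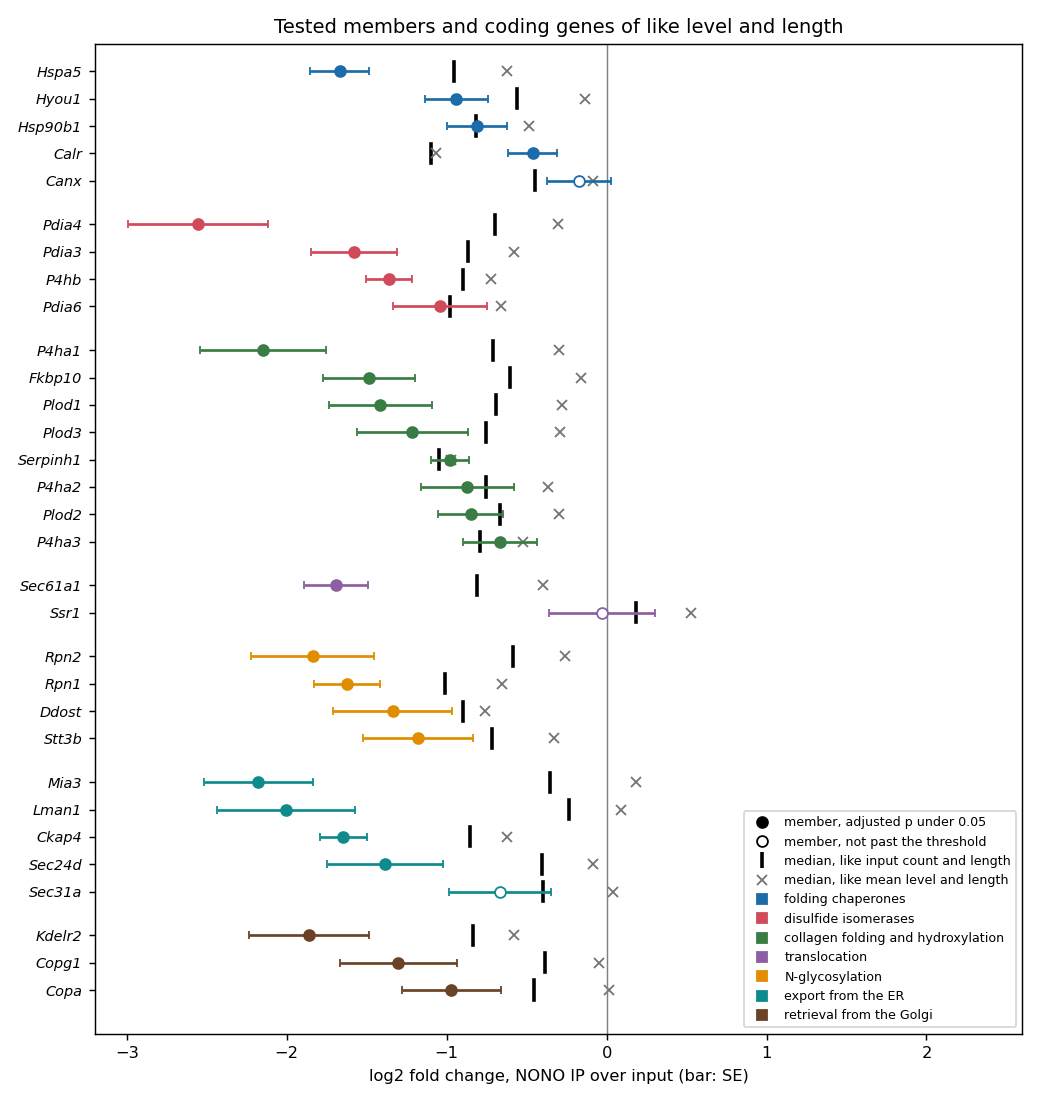
Log2 fold change of NONO IP over input with its SE for the 31 tested members (filled, adjusted p under 0.05; open, not past it), beside the median of coding genes of like input count and length (black bar) and of like mean level and length (grey cross). Most members lie left of both marks; Calr lies right of both.

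Other genes of the secretory pathway, taken from 5 gene lists, were also lower more often than higher. Of 128 with a row, 52 were tested, of which 29 fell, 2 rose and 21 did not pass, at a median of −0.80. Of tested coding genes, 27.7% fell and 27.3% rose. The count filter admitted part of the 29 through the input alone, so their calls add little. These were Manf, Creld1, P3h4, Srpra, Man1b1, Lman2, Tmed3, Ergic3, Copb2, Cope, Arcn1 and Golga3. They enter the counts and medians of their lists. Among other ER folding genes 10 of 12 fell, including the collagen prolyl 3-hydroxylase family gene P3h3 (−1.05, SE 0.16) and the disulfide isomerase Txndc5 (−1.54, SE 0.19). Of 7 other translocation genes 2 fell, a share near that background, the signal recognition particle receptor Srpra (−2.26, SE 0.33) and the ribosome-binding protein Rrbp1 (−0.45, SE 0.12). Rrbp1 had 195 and 190 reads in the NONO IP and 181 and 170 in the inputs, and stood at −0.021, not called, on library totals.

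Of 10 other N-glycosylation and quality control genes 5 fell, including the glucosidase II subunit Prkcsh (−0.61) and the ER-associated degradation adaptor Sel1l (−1.48). Of 9 other export genes 6 fell, including the cargo receptor genes Surf4 (−0.89) and Tmed9 (−1.82). COPI and Golgi transport genes were mixed: of 14 tested, 6 fell, among them Arf1 (−0.83), and 2 rose. The 2 that rose were Arf3 (1.70, SE 0.29, adjusted p = 9.68e-05), a small GTPase of the Golgi, and Arfgap1 (1.37, SE 0.30, adjusted p = 0.000992), which turns such GTPases off. Arf3 had 78 and 55 reads in the NONO IP and 15 and 12 in the inputs, and Arfgap1 had 48 and 57 against 11 and 16. Both calls ended on the RPKM scales, where the changes were 0.97 and 1.03 for Arf3 and 0.68 and 0.73 for Arfgap1. Golga4, a tethering protein of the trans-Golgi, did not pass (−0.53, SE 0.28). The Prkcsh call ended under 6 of 17 alternatives (adjusted p from 0.000310 to 0.799), among them library totals (−0.18), the length offset (−0.059) and leaving out NONO IP replicate 1. The Arf1 call ended under 7 of 16 (0.00532 to 0.388), among them leaving out NONO IP replicate 2 or Input replicate 1, and the Surf4 call under 5 of 16 (0.00245 to 0.105).

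Genes listed as regulators of the unfolded protein response, which controls transcription of many of the members, gave 7 lower and none higher of 13 tested. The median was −1.08, and the background was 27.7% lower and 27.3% higher. Among the 7, Xbp1, Atf6, Herpud1 and Ppp1r15a passed the count filter through the input alone, so their calls add little. Atf6b, a membrane-bound transcription factor of the response, had 19 and 15 reads in the NONO IP and 37 and 33 in the inputs (−1.62, SE 0.29), while Nfe2l1 had 72 and 77 against 55 and 43 and did not pass (0.02, SE 0.20). Chaperones of the cytosol and mitochondria, whose mRNAs are not translated at the ER, gave 5 lower and 2 higher of 12 tested. Their median was −0.67. These 12 genes are few to set beside that background, as are the 7 to 14 tested genes of each list above. Over all 31 with a row, both NONO IP libraries lay below both inputs in scaled CPM for 19 and above them for 2. Of the listed coding genes, 25.1% lay lower and 21.2% higher in that way. The log2 ratio of sums was −0.97 for these 31 genes and −1.15 for the 42 members. Hsp90ab1 (−1.15, SE 0.19) fell, as did Hspa8 (−4.70, SE 0.45), with 3 and 1 reads in the NONO IP against 37 and 37. Dnaja2 (1.11, SE 0.45, edgeR adjusted p = 0.0442) and Dnajb6 (1.92, SE 0.45) rose. Among the 5 lower genes, Hspa8, Cct5, Hspb1 and Cryab passed the count filter through the input alone. Dnaja2 and Dnajb6 passed it through the NONO IP alone. Genes admitted by 1 group had to differ, so these calls add little. The Dnaja2 call ended under 9 of 16 alternatives, among them leaving out any single library.

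Collagen chains, the main cargo of this machinery, were mostly lower as well. Of 23 tested, 18 fell and 2 rose, at a median of −0.56, beside 27.7% of tested coding genes lower and 27.3% higher. Col1a1 changed by −0.42 (SE 0.05) and Col1a2 by −0.75 (SE 0.06), and Col1a1 stood at 0.014 on library totals. Col11a2 (0.82, SE 0.32) and Col27a1 (1.52, SE 0.38) rose, from input reads of 11 and 13 for Col11a2 and 7 and 7 for Col27a1. Col27a1 passed the count filter through the NONO IP alone. Both calls ended on the RPKM scales, and that of Col11a2 also without NONO IP replicate 1 or either input. Medians of these lists were not tested against that of the members.

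**Figure D5:**
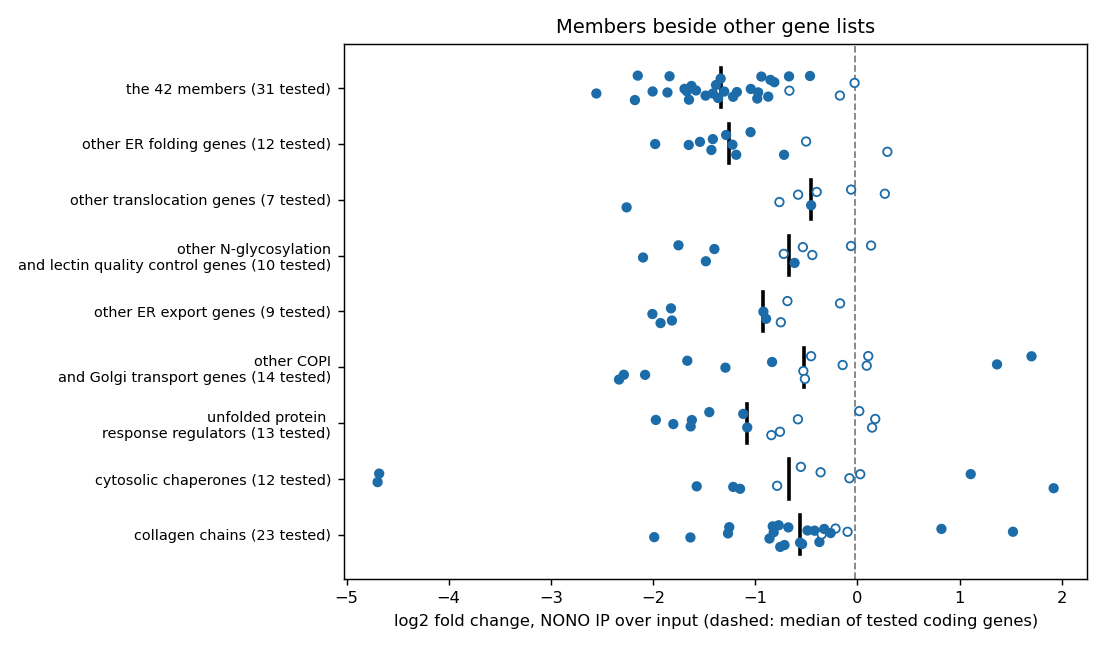
Log2 fold change of NONO IP over input for the tested genes of the member set and of 8 other lists, with filled points for an adjusted p under 0.05, black bars for list medians and a dashed line at the median of tested coding genes (−0.03). The members lie between −2.55 and −0.03 with Ssr1 on the dashed line and none to its right, whereas all other lists except ER export genes have points on both sides.

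Some reads of these genes may belong to neighbours. In the RefSeq annotation of the GRCr8 assembly, used for neighbourhood only, 11 of the 42 members overlapped another gene, and Catsper2 (beside Pdia3), Znhit1 (beside Plod3) and Taf1a (beside Mia3) were the overlapping genes with a row, at 2 reads or fewer per library. Near-identical copies such as processed pseudogenes can also share reads, and how the authors' counting treated them is not given in the sources used here.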

How the data were processed

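RNA from 2 NONO IP and 2 input libraries was sequenced after poly(A) capture with a stranded kit, per the labels' protocols. The deposited tables give, for each gene, raw read counts and the authors' RPKM values, with gene type and chromosome. The submitters' processing notes name HISAT2, HOMER and the mRatBN7.2 build without roles or versions, and neither the counting program nor its strand setting is named. Such settings decide how reads of overlapping or duplicated genes were assigned.

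Counts were tested with edgeR 4.0.16 (quasi-likelihood, TMM scaling, filterByExpr, R 4.3.3) over 2920 of 13731 genes holding 91.1% of counts, with Benjamini-Hochberg adjustment at 0.05. Scripts were tested on simulated data. Alternatives used DESeq2 1.42.0, limma 3.58.1 on counts and on log2(RPKM + 1) or log2(RPKM + 0.1), other scalings and filters, and each library left out. Relative length is counts divided by RPKM. Full values are given for the 3 tested members of each class with the most input reads and for tested members not called; in other lists, the 2 genes with the most input reads and those called against the majority are named. Pdia4, P4ha1, Lman1 and families of paralogues were singled out after their values were seen. The members and lists were chosen with earlier results of these data known.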

Additional observations from a re-analysis of the deposited data

How the results depend on the processing

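In 17 alternatives, no member was called higher. Against 28 members called lower, library totals and the DESeq2 Wald test gave 18 each (background 16.3% and 14.7% of coding genes), and a filter of 50 counts in 2 libraries gave 10 of the 11 it tested (background 42.2%). The median of −1.34 became −0.91 on library totals, −1.02 with that filter, −1.68 and −1.92 on log2(RPKM + 1) and log2(RPKM + 0.1), and −0.94 with a length offset, without or with the replicate block. All tested genes had a median of 0.45 on library totals, −0.61 and −0.82 on the RPKM scales and 0.10 with the length offset, and the members' median minus it was −1.36 both by TMM and on library totals. Calls over all genes numbered 1657, 876 by the DESeq2 Wald test and 501 with the filter of 50 counts. The difference from like genes (−0.52) was −0.97 with mean level and −1.06 with length alone, and the log2 ratio of the members' share (−0.72) was −0.88 within coding counts. Causes were not tested, except that the filter of 50 counts tests fewer genes.

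Signs turned for Canx (0.26 on library totals, 0.046 with no filter), Ssr1 (0.40 on library totals, 0.019 with TMM on coding genes, 0.017 with limma-voom, 0.19 with no filter), Calr (0.20 with the length offset, without or with the block), Col1a1 (0.014 on library totals) and Nfe2l1 (−0.022 with the filter of 50 counts, −0.60 and −0.63 on the RPKM scales). Leaving out 1 library gave 23 to 26 members lower, medians from −1.48 to −1.02, 1294 to 1504 calls and differences from like genes from −0.57 to −0.45. It put Ssr1 between −0.46 and 0.47 and Nfe2l1 between −0.19 and 0.17.

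Replicate numbers are not stated to pair libraries, and deviations of same-numbered libraries correlated at 0.0418. With the replicate block 28 members were called lower at a median of −1.34, no member's call changed, and all genes gave 1676 calls. A filter on a mean of 10 counts, chosen after seeing the data, gave 28 lower. Depth limits the 11 untested members: with no filter their adjusted p-values lay above 0.05 except for Ssr4 (0.0105).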
